A study of Mus musculus with 8 samples.

Results

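Nupr1 and 8 genes of the integrated stress response, Atf4, Atf5, Ddit3, Ddit4, Trib3, Chac1, Asns and Sesn2, were followed through the cell types of the mouse lung. These 9 genes, of 33,027 in the deposited matrix, were taken by name, with earlier results of these data known. The question asked of them was whether Nupr1 moved with ATF4 and its target genes after cigarette smoke, and in which cell types other than alveolar epithelial type II (AT2) cells. The data were single-cell RNA profiles (droplet 3′ sequencing) from 8 mice, of which 4 breathed cigarette smoke (CS) and 4 room air (RA) over 10 months. All 8 mice carried Sftpc-CreERT2, a Cre recombinase driven by the promoter of the surfactant gene Sftpc, and the mTmG reporter, on a C57BL/6 background, and all received tamoxifen at 8 to 10 weeks of age, before littermates were divided between the exposures. Right lungs were digested and the suspension was remixed to hold mostly CD45- cells, so the shares of immune cells were set by the sort. The CS mice are named here C2, C5, D2 and D5 and the RA mice F1, F3, M1 and M3, and values for single mice follow that order. Each of the 4 sequencing lanes held 1 mouse of each exposure (C2 with F1, D2 with F3, C5 with M1 and D5 with M3).

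The integrated stress response begins with kinases that sense unfolded protein, amino acid shortage, double-stranded RNA or lack of heme and phosphorylate the translation factor eIF2. General translation then slows while the mRNA of ATF4, a bZIP transcription factor, is translated more, so ATF4 activity can change with little change in its mRNA. ATF4 pairs with C/EBP proteins at composite sites and drives genes of amino acid supply such as Asns, the factors Atf5 and Ddit3 (which encodes CHOP), the feedback gene Trib3, the glutathione-degrading enzyme gene Chac1 and the mTORC1 inhibitor genes Ddit4 and Sesn2. Nupr1 encodes a small stress-induced chromatin protein that responds to amino acid and endoplasmic reticulum stress, and it is the gene whose AT2 expression the study followed.

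The promoters of the members are given first, because ATF4-dependent genes are described by a composite element in their promoters. RefSeq (GRCm38.p6) listed 10 promoters for the 9 members, each from 250 bases before to 50 bases after a transcription start. The motif TTNCATCA, a short form of the ATF4-C/EBP composite element, was searched on both strands (TGATGNAA on the other), without overlap with any second motif. It was found in 4 of the 10, those of Nupr1, Trib3, Chac1 and Asns, and in 3.97% of all 32,851 promoters of the same length. These 4 are printed 5′ to 3′ on the gene's strand with the match in capitals.
Nupr1, chr7:126625421-126625720, minus strand: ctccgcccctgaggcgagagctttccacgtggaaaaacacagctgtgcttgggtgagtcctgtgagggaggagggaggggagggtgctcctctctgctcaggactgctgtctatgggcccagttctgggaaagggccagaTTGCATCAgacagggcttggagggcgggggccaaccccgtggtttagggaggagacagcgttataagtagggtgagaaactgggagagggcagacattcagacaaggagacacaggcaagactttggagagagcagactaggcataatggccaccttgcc
Asns, chr6:7693160-7693459, minus strand: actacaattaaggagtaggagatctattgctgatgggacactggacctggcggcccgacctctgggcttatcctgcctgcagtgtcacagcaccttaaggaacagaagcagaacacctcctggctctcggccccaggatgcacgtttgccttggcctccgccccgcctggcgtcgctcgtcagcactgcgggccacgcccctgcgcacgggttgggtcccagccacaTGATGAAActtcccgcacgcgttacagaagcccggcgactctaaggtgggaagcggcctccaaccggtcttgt
Chac1, chr2:119350992-119351291, plus strand: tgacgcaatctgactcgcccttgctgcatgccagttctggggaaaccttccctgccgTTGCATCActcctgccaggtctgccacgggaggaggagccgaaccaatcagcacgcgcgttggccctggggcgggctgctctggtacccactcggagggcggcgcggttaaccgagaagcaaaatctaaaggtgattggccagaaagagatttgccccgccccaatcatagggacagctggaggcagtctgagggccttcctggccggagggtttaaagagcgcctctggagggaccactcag
Trib3, chr2:152344011-152344310, minus strand: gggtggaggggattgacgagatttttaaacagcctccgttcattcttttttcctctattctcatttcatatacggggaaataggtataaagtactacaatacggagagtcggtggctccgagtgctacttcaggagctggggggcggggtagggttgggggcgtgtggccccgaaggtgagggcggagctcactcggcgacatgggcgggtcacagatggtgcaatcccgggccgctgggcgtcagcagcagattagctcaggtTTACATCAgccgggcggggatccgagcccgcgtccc
The Nupr1 match began 110 bases before the start and had the same 8 letters as the Chac1 match, which began 193 bases before its start. The Asns match lay on the opposite strand, 23 bases before the start, and the Trib3 match began 14 bases after the start. The windows of Atf4, Atf5, Ddit3, Ddit4 and Sesn2 held no match to these letters. A match describes the sequence and does not show that ATF4 was bound there.

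In the GENCODE annotation of GRCm38, Nupr1 and Atf5 both lie on the minus strand of chromosome 7, Nupr1 from 126623249 to 126630861 and Atf5 from 44812256 to 44816658. Ddit3 (127290774 to 127296288) and Ddit4 (59949669 to 59951834) lie on chromosome 10, and Chac1 (119351229 to 119354381) and Trib3 (152337422 to 152344032) on chromosome 2. Atf4 lies on chromosome 15 (80255184 to 80257541), Asns on chromosome 6 (7675169 to 7693254) and Sesn2 on chromosome 4 (132492032 to 132510501). A second annotated entry named Ddit3 (127290829 to 127293753) lies within the first on the same strand, so Ddit3 counts may hold reads of either.

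After 1,025 cells labelled as multiplets and 7 labelled by cell cycle were set aside, 40,074 cells remained in 32 labelled types, with 2,553 to 6,371 cells, 31882952 to 55485617 transcripts in all and a median of 4,254 to 6,473 transcripts per cell in each mouse. A total of 197 cell barcodes occurred in 2 or more libraries. The sex-linked transcripts of all 4 CS libraries went against the labelled sex and those of the 4 RA libraries did not. Xist was at 7.83 and 8.34 transcripts per 10,000 in C2 and C5, labelled male. In D2 and D5, labelled female, it was at 0.0421 and 0.0156. Among RA mice Xist was at 5.58 and 6.71 in F1 and F3, labelled female. It was at 0.0138 and 0.00949 in M1 and M3, labelled male. Exposure, the grouping used here, was not checked against a gene. Because all 4 CS libraries were affected, no comparison can be made without them. Labels were checked against marker genes, and most led in their own type. The cells labelled Mast were led by Prss34, Il4, Mcpt8 and Cyp11a1, and those labelled NG were highest in S100a8 and S100a9, and both are referred to by their labels. A value for a mouse is the mean over its cells of a type of transcripts scaled to 10,000 per cell, and a type was tested where at least 3 mice of each exposure had 20 or more cells, which held for 22 types.

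Nupr1 was highest in ciliated and secretory airway cells, fibroblasts and AT2 cells, and it was low in most endothelial and lymphoid cells. It was also low in basal airway cells (0.0131 to 0.288 transcripts per 10,000, 4 mice) and in pericytes (0.238 to 0.443, 3 mice). The highest mean of Nupr1 was in ciliated cells at 5.90 ± 1.60 transcripts per 10,000 (SD, n = 8 mice). Goblet cells at 4.61 ± 0.891 (n = 8) and peribronchial fibroblasts at 4.47 ± 0.997 (n = 6) followed. Club cells, alveolar fibroblasts, AT2 cells and adventitial fibroblasts lay between 3.42 and 4.37. From ciliated cells down to these 4 types, the mean difference between neighbours in the order was no larger than its SD over mice, which describes the spread of single mice and is no test of the order. The step from ciliated to goblet cells was the widest of these, 1.29 with an SD of 1.29. Ciliated cells exceeded goblet cells, and alveolar fibroblasts exceeded AT2 cells, in 7 of 8 mice. Non-classical monocytes (ncMono, 3.17 ± 0.83, n = 7) and mesothelium (2.71 ± 0.942, n = 7) came next, and lymphatic endothelium (1.04 ± 0.594, n = 8), classical monocytes (cMono, 0.925 ± 0.390, n = 8) and alveolar macrophages (0.541 ± 0.115, n = 8) were lower. In capillary A endothelial cells, whose markers Car4, Ednrb and Apln are those of aerocytes, Nupr1 was at 0.0578 ± 0.0274 (n = 8).

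Averaged over mice, 83.2% of AT2 cells and 3.44% of B cells held Nupr1. Per mouse, median depth was 9,434 to 15,384 transcripts in AT2 cells and 3,421 to 4,681 in B cells. The B cell share is taken here to stand for leftover free RNA, which was not measured and cannot be told from low expression. With each cell thinned to 2,000 transcripts the shares were 40.0% and 1.44%, and 53.3% of ciliated cells then held one. In 10 of the 22 types Nupr1 was found in fewer than 10% of the cells of either exposure, and it was not tested there. These were AT1 cells, B, T, NK and cytotoxic T cells, the cells labelled Mast and NG, and every endothelial type except the lymphatic.

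The other members had other patterns. Atf4 was present in every type, from 1.09 ± 0.247 in club cells to 5.28 ± 2.08 in venous endothelium (SD, n = 8 for both), and was low in the ciliated and secretory cells where Nupr1 was high. Atf5 was largely a fibroblast transcript, at 2.87 ± 0.718 in adventitial and 2.45 ± 0.807 in alveolar fibroblasts (n = 8 for both). Asns, which encodes asparagine synthetase, led in AT1 cells (0.702 ± 0.146), capillary A endothelium (0.635 ± 0.202) and ciliated cells (0.628 ± 0.117). Ddit4 stood at 6.24 ± 1.07 (n = 7) in the cells labelled Mast against 1.08 ± 0.421 (n = 8) in lymphatic endothelium, the next highest. Ddit3, Sesn2 and Chac1 were all highest in the cells labelled NG, at 1.16 ± 0.155, 0.921 ± 0.193 and 0.299 ± 0.188 (n = 8), and Trib3 in lymphatic endothelium at 0.272 ± 0.0937 (n = 8). These levels are 3′ tag counts and carry no length correction, so a comparison between genes compares tags.

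**Figure D1:**
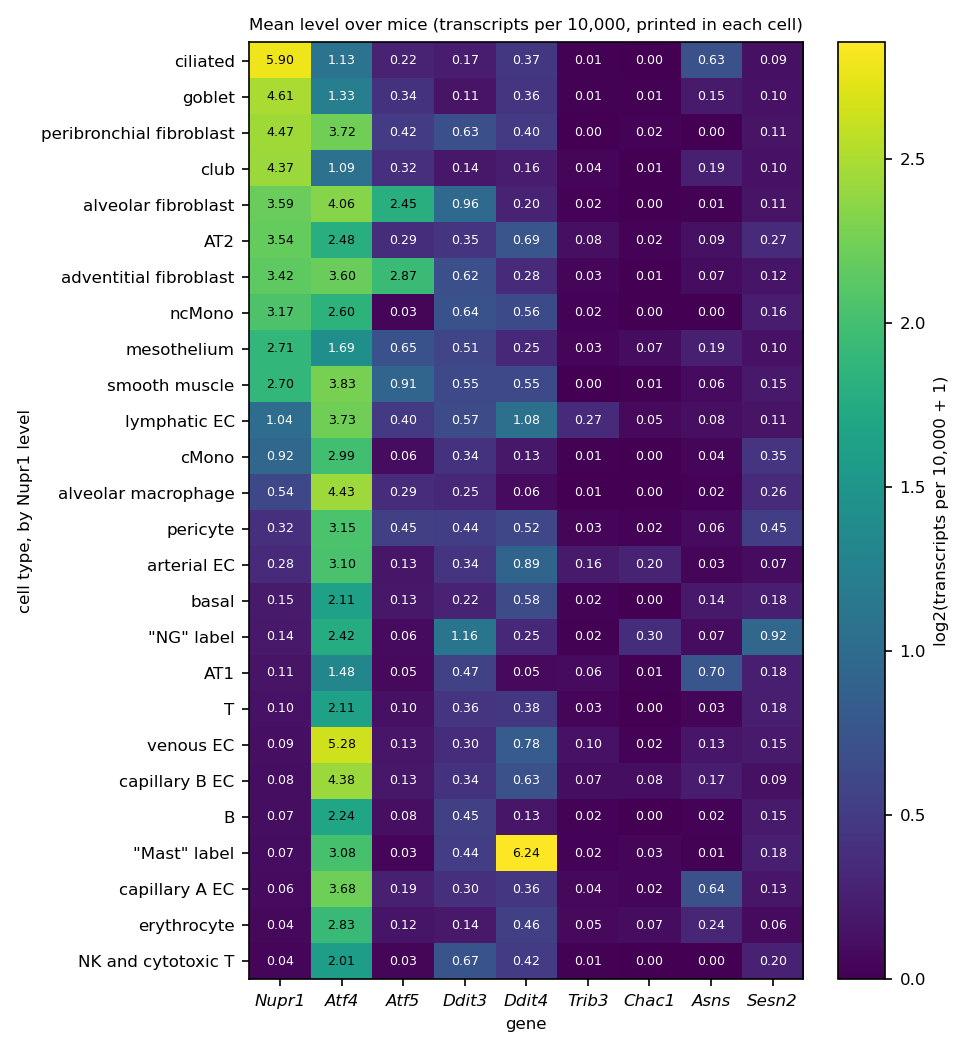
Mean level over mice of the 9 genes (columns) in 26 cell types (rows, ordered by Nupr1), in transcripts per 10,000 as printed in each cell, with colour on the log2(level + 1) scale. Nupr1 is high in the upper rows, Atf4 is present in all rows, Atf5 is concentrated in 2 fibroblast types and Ddit4 in the cells labelled Mast at 6.24.

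Across the 22 types tested, the pattern of Nupr1 was most like those of Plxna3 (Pearson r = 0.83), Mlxipl (0.82), Tmem53 (0.81), Arhgef19 (0.81) and 1810062G17Rik (0.78), of 15,350 genes compared on log2(level + 1). All 5 were at or under 0.586 transcripts per 10,000 in every type. Of the members, Atf5 was the most alike (r = 0.51, rank 815) and Atf4 the least (r = -0.33). These are correlations over types that share libraries and are given as a description.

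In AT2 cells, the 4 CS mice held 1.62, 1.63, 2.82 and 3.11 Nupr1 transcripts per 10,000 and the 4 RA mice 8.40, 2.83, 3.92 and 3.99. CS mice C2 and C5 were the lowest of all, RA mouse F1 stood far above the rest, and the lowest RA mouse lay within the range of the CS mice. Among CS mice, C2 and C5 were those with high Xist. The RA mice with high Xist, F1 and F3, held the highest and the lowest RA value. The part of sex in these values was not tested. The difference was -0.76 ± 0.24 (SE) in log2(transcripts per 10,000 + 1), CS minus RA, with an adjusted p of 0.591 over the 9,032 genes tested in AT2 cells (limma, Benjamini-Hochberg). Of those genes 0% passed 0.05 after adjustment, and 671 had an unadjusted p below it, Nupr1 among them (unadjusted p = 0.00871, limma). The exact two-sided permutation p for Nupr1 was 0.0571. Without F1 the difference was -0.50, and CS was lower in all 4 lanes.

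The other members of the pathway in AT2 cells did not share one direction. Atf4 was at 2.20, 2.49, 2.53 and 2.84 in CS mice and 2.42, 2.14, 2.33 and 2.85 in RA mice, a difference of 0.03 ± 0.09, with an adjusted p of 0.953 (limma). Those 2 ranges were nearly the same. Asns was at 0.0704, 0.0475, 0.0320 and 0.0902 in CS mice and 0.198, 0.0799, 0.110 and 0.126 in RA mice (-0.09 ± 0.03, adjusted p = 0.609, limma), passing the filter through the RA cells only, and Atf5 at 0.265, 0.173, 0.135 and 0.274 against 0.616, 0.207, 0.274 and 0.393 (-0.17 ± 0.08, adjusted p = 0.669, limma). F1 was the highest mouse for both, as it was for Nupr1, and the exposures overlapped. Without F1 the differences were -0.06 for Asns and -0.09 for Atf5. As a ratio of means, which does not shrink at low levels, CS mice held 0.468 of the RA level for Asns and 0.568 for Atf5, beside 0.480 for Nupr1, and without F1 the ratios were 0.571, 0.726 and 0.641. Each of the 3 genes was lower in CS in 4 of 4 lanes and none was called.

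Ddit3 in AT2 cells was at 0.271, 0.385, 0.253 and 0.359 in CS mice and 0.477, 0.298, 0.374 and 0.415 in RA mice (-0.08 ± 0.05, adjusted p = 0.757, limma). Ddit4 was at 0.679, 0.781, 0.690 and 0.761 against 0.726, 0.616, 0.726 and 0.522 (0.07 ± 0.05, adjusted p = 0.799, limma), and Sesn2 at 0.294, 0.260, 0.264 and 0.342 against 0.328, 0.248, 0.238 and 0.218 (0.04 ± 0.04, adjusted p = 0.864, limma). For these 3 genes the exposures overlapped, and without F1 the differences were -0.05 for Ddit3, 0.09 for Ddit4 and 0.06 for Sesn2. Trib3 and Chac1 were found in fewer than 10% of AT2 cells and were not tested, with 0.0505 to 0.0992 in CS and 0.0427 to 0.121 in RA mice for Trib3, and 0.00907 to 0.0221 and 0.00901 to 0.0359 for Chac1. In AT2 cells the endothelial markers summed to 2.49 to 5.35 in CS and 1.96 to 7.17 in RA mice, and the fibroblast markers to at most 0.432. The club cell markers summed to 27.4 to 69.3 in CS and 33.2 to 84.7 in RA mice, with F1 the highest. The immune markers, which hold Lyz2 and Cd74, genes that AT2 cells also express, summed to 319 to 364 and 302 to 395. The part of these lists in the Nupr1 values was not tested.

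Outside AT2 cells Nupr1 was tested in 11 types, and in 10 of them its CS value was the lower. None passed an adjusted p of 0.05 (limma), while 4 had an unadjusted p below it: alveolar fibroblasts, mesothelium, lymphatic endothelium and adventitial fibroblasts. Over all gene and type combinations, 6.3% had an unadjusted limma p below 0.05 with CS lower. In alveolar fibroblasts, the stromal cells beside AT2 cells, Nupr1 was at 2.55, 2.44, 3.41 and 3.13 in CS mice and 3.72, 4.25, 4.22 and 5.01 in RA mice. Every CS mouse lay below every RA mouse, in all 4 lanes, and the CS mean was 0.670 of the RA mean. The difference was -0.45 ± 0.11, with an exact two-sided permutation p of 0.0286, the smallest that 4 against 4 mice can give, and an adjusted p of 0.0649 (limma). Among genes found in at least 25% of cells, a smaller set, the adjusted p was 0.0387 (limma), and under the other 15 alternatives it was 0.0551 to 0.253.

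In mesothelium, where C2 had too few cells, the CS mice C5, D2 and D5 held 2.05, 2.23 and 1.49 Nupr1 transcripts per 10,000 and the RA mice 4.05, 2.26, 3.63 and 3.27. The exposures did not overlap, but D2 and F3 nearly touched (-0.55 ± 0.15, adjusted p = 0.173, limma). In lymphatic endothelium the CS mice held 0.665, 0.475, 0.550 and 1.05 and the RA mice 2.35, 0.950, 1.27 and 0.987 (-0.48 ± 0.16, adjusted p = 0.352, limma). F1 was again the highest, D5 lay within the RA range, and the difference was -0.30 without F1. In adventitial fibroblasts the values were 2.96, 2.45, 3.11 and 2.86 against 2.86, 3.76, 3.89 and 5.47 (-0.36 ± 0.14, adjusted p = 0.167, limma), and here F1 was the lowest of the RA mice.

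The 3 types with the highest Nupr1 outside AT2 cells showed no separation. Ciliated cells held 3.60, 4.30, 7.46 and 7.44 in CS mice and 7.93, 4.95, 6.07 and 5.44 in RA mice (-0.12 ± 0.20), so that C2 and C5 were below all RA mice and D2 and D5 above 3 of them. Without C2 the sign turned, to 0.04. Here too C2 and C5 were the CS mice with high Xist. The RA mice with high Xist, F1 and F3, again held the highest and the lowest RA value. The part of sex in the ciliated cell values was not tested. Goblet cells held 4.55, 3.42, 5.14 and 4.30 against 5.71, 3.51, 5.76 and 4.51 (-0.12 ± 0.21), and peribronchial fibroblasts 3.49, 5.68 and 4.81 (C5, D2, D5) against 4.20, 3.23 and 5.38 (F1, F3, M1), with a difference of 0.10 ± 0.23 that turned to -0.02 without D2 and to -0.04 without F3. The goblet cell difference ranged from -0.24 to -0.04 with 1 mouse left out. In club cells F1 stood at 13.5 while the other RA mice held 2.34 to 3.28 and the CS mice 1.87 to 4.86, and the difference of -0.38 turned to 0.11 without F1.

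Whether AT2 cells differed from other types in their Nupr1 response was tested directly, as the difference between types of log2(level + 1) within a mouse. This was done for 16 types with all 8 mice, of which 8 held Nupr1 in 10% or more of the cells of 1 exposure. In those 8 the AT2 difference minus that of the other type ranged from -0.73 (alveolar macrophages) to -0.28 (lymphatic endothelium). It was -0.64 against ciliated cells, with all CS mice below all RA mice and an exact two-sided permutation p of 0.0286, and -0.31 against alveolar fibroblasts (exact permutation p = 0.543). The adjusted exact permutation p was 0.152 and 0.543. F1 entered all these values, and without it Nupr1 was at -0.50 in AT2 cells, -0.51 in alveolar fibroblasts and -0.003 in ciliated cells. A pass at 0.05 after adjustment over the 16 types would have needed 10 of them at 0.0286, the smallest p that 4 against 4 mice can give, so the adjusted values say little about whether AT2 cells stood apart.

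**Figure D2:**
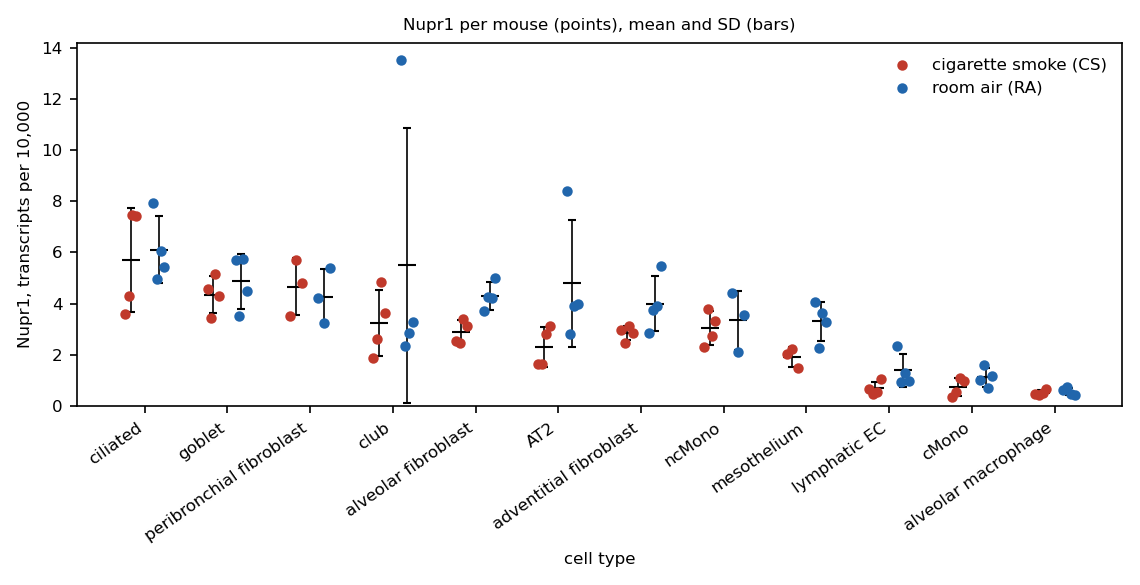
Nupr1 in transcripts per 10,000 in each mouse (points) of the 12 types tested, with the mean and SD of each exposure (bars), CS on the left and RA on the right of each type. In alveolar fibroblasts the CS mice (2.44 to 3.41) lie below the RA mice (3.72 to 5.01), and in AT2 and club cells 1 RA mouse (F1, 8.40 and 13.5) stands apart.

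Over all members and types, 108 combinations passed the filter (a transcript in 10% or more of the cells of 1 exposure), and the log2 difference was below 0 in 87 of them, with a median of -0.12. F1 was the highest of all mice in 36 of the 96 combinations it entered, and without F1 the difference was below 0 in 83 of 108, with a median of -0.08. Over all 172,262 gene and type combinations, 45.8% were below 0 and the median was 0.01. An adjusted p below 0.05 with CS lower was reached by 6 member combinations, against a background of 0.518% of all combinations, and 0 were higher, against 0.712%. The members were chosen with earlier results of these data known, so counts beside the background describe them and test nothing. All CS mice lay below all RA mice in 19 combinations (background 4.67%) and above them in 4 (background 6.01%). An unadjusted p below 0.05 was found in 39, of which 34 were lower in CS (background 6.3%) and 5 higher (background 8.92%). Of the 108 combinations, 11 passed the filter through the RA cells only and 2 through the CS cells only, which favours a difference in that direction, and 1 of the 6 calls was among them (Atf5 in capillary A endothelium). The 6 calls fell in 5 types and on 3 genes, Atf5, Asns and Ddit4, and each was lower in CS in all 4 lanes. With the lane as a block 2 of the 6 calls remained past 0.05, Atf5 in alveolar fibroblasts and Asns in capillary A endothelium, and with p-values adjusted over all types together 2 remained as well, Atf5 in alveolar fibroblasts and Ddit4 in venous endothelium. Many members are at levels below 1, where a difference in log2(level + 1) understates the ratio, so the ratio of means is given beside each call and for Asns and Atf5 in AT2 cells.

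**Figure D3:**
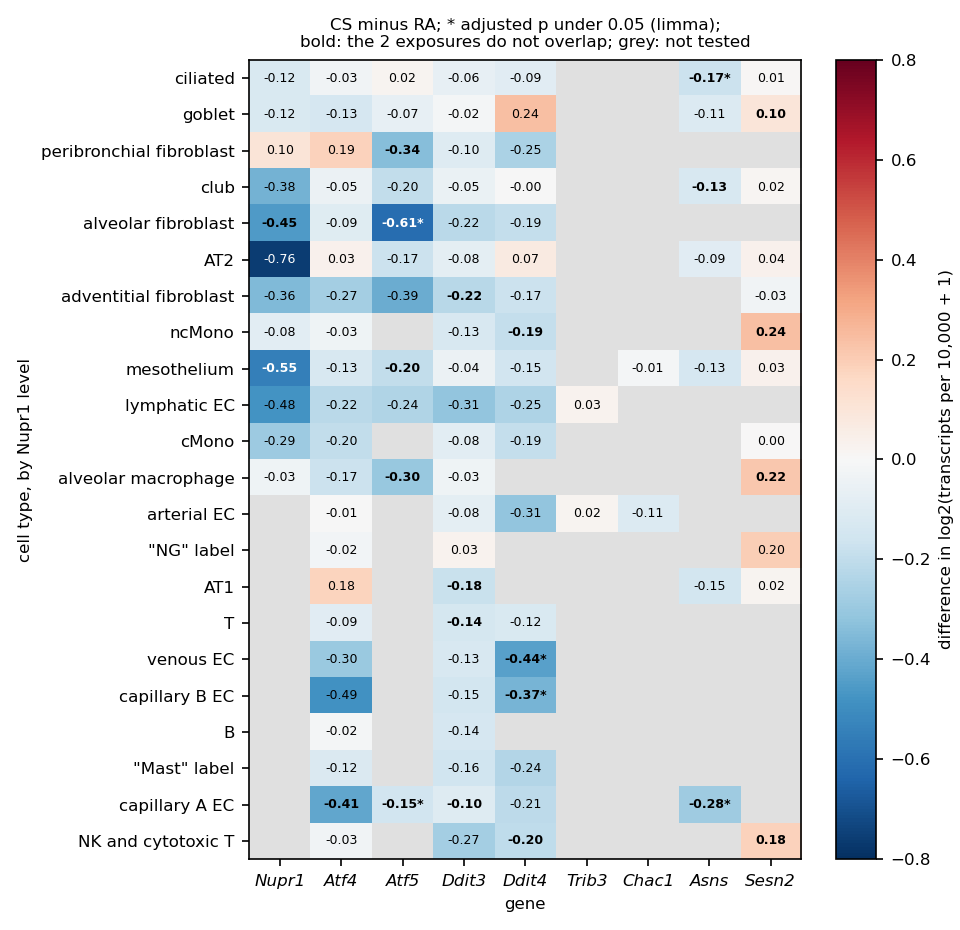
Difference between CS and RA mice in log2(transcripts per 10,000 + 1) for the 9 genes (columns) in the 22 tested types (rows, ordered by Nupr1 level). Stars mark an adjusted p below 0.05 (limma), bold values mark exposures that do not overlap and grey cells were not tested. The columns of Nupr1, Atf4, Atf5, Ddit3, Ddit4 and Asns are mostly below 0 and that of Sesn2 is mostly above.

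Atf4, the regulator, passed the filter in all 22 types, was lower in CS in 19 of them with a median of -0.09, and was called in 0. The unadjusted limma p was below 0.05 in 3 types, capillary A and capillary B endothelium and adventitial fibroblasts. All were lower in CS, where 6.3% of all combinations had such a p with CS lower. In capillary A endothelium Atf4 was at 3.24, 2.79, 2.95 and 2.88 in CS mice and 6.37, 4.34, 3.26 and 3.63 in RA mice. The exposures did not overlap, though C2 and M1 were nearly level and F1 was the highest, and the difference of -0.41 was -0.25 without F1 (-0.41 ± 0.15, adjusted p = 0.132, limma, and an exact two-sided permutation p of 0.0286). In capillary B endothelium, which led in Gpihbp1 and Plvap, markers of general capillaries, but not in Ptprb, the values were 3.12, 4.02, 3.43 and 2.99 against 8.51, 4.92, 4.03 and 3.99, and the difference was -0.28 without F1 (-0.49 ± 0.19, adjusted p = 0.105, limma).

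Atf5, a bZIP factor downstream of ATF4, had the lowest adjusted p among the members. In alveolar fibroblasts it was at 1.37, 1.74, 1.86 and 1.95 in CS mice and 3.20, 3.51, 3.14 and 2.81 in RA mice. Every CS mouse was below every RA mouse, with a gap between the highest CS and the lowest RA mouse larger than the range of either exposure. The mean fell from 3.16 ± 0.290 to 1.73 ± 0.255 (SD, n = 4 and 4), 0.547 of the RA level, and the difference was -0.61 ± 0.10 with an adjusted p of 0.00901 (limma). Of all genes tested in alveolar fibroblasts, 0.672% were called lower. The call was kept without any 1 mouse (adjusted p 0.0210 to 0.0382, limma) and was lost only when genes were not filtered at all (adjusted p = 0.0846, limma). In these cells the endothelial markers summed to 3.33 to 4.16 in CS and 2.27 to 5.58 in RA mice, and 14 immediate-early and digestion genes to 155 to 232 and 159 to 225, and both overlapped. The 9 glucocorticoid-responsive genes summed to 24.0 to 43.8 in CS and 31.9 to 46.6 in RA mice, with overlap, and 2 of them, Tsc22d3 (-1.23) and Zbtb16 (-0.74), were called lower in these cells. Their part in the Atf5 result was not tested.

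Atf5 was also called in capillary A endothelium, at 0.104, 0.141, 0.119 and 0.125 in CS mice and 0.213, 0.330, 0.226 and 0.232 in RA mice. The exposures did not overlap and the CS mean was 0.489 of the RA mean (-0.15 ± 0.03, adjusted p = 0.0398, limma, background 0.989% called lower in this type). The adjusted p was 0.0631 with the lane as a block, 0.0709 adjusted over all types, 0.181 without a filter, and 0.0694 to 0.123 (limma) without C2, C5, D2, D5, F3 or M3 in turn. Pooled over mice, Atf5 was found in 6.06% of the capillary A cells of CS mice and 10.2% of those of RA mice, so it passed the filter through the RA cells only, the exposure where it is high. In this type the 9 glucocorticoid-responsive genes summed to 13.8 to 19.3 in CS and 21.3 to 28.3 in RA mice without overlap, Tsc22d3 among them was called lower (-0.50), and their part in the Atf5 and Asns results was not tested. Beyond the calls, CS and RA mice did not overlap for Atf5 in alveolar macrophages (-0.30), mesothelium (-0.20) and peribronchial fibroblasts (-0.34), with adjusted p-values of 0.306, 0.176 and 0.574 (limma), and in the first and last of these it passed the filter through the RA cells only. The AT2 markers did not overlap in peribronchial fibroblasts (0.694 to 0.910 in CS and 1.72 to 6.08 in RA mice). In mesothelium the glucocorticoid list did not overlap (19.1 to 22.3 and 23.6 to 40.6). Their part in these differences was not tested. In adventitial fibroblasts, where its level was highest, it was at 2.09, 3.08, 1.82 and 2.42 against 3.58, 3.38, 2.76 and 3.80 (-0.39 ± 0.13, adjusted p = 0.0994, limma), with C5 above the lowest RA mouse.

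Ddit3, the gene of the proapoptotic factor CHOP, was below 0 in 21 of 22 types with a median of -0.11, and none was called. The unadjusted limma p was below 0.05 in 8 types, all lower in CS, where 6.3% of all combinations had such a p with CS lower. Among these, in capillary B endothelium, Ddit3 passed the filter through the RA cells only (9.83% of CS and 15.7% of RA cells). In adventitial fibroblasts it was at 0.460, 0.497, 0.614 and 0.430 in CS mice and 0.667, 0.670, 0.831 and 0.820 in RA mice, without overlap (-0.22 ± 0.06, adjusted p = 0.0713, limma). Among genes found in at least 25% of cells the adjusted p was 0.0451 (limma), and under the other 15 alternatives it was 0.0642 to 0.197. In alveolar fibroblasts Ddit3 was at 0.787, 0.998, 0.832 and 0.643 against 0.870, 1.08, 1.22 and 1.28 (-0.22 ± 0.08, adjusted p = 0.153, limma), with C5 above the lowest RA mouse.

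Asns, the asparagine synthetase gene and an amino acid response target, was lower in CS in all 7 types where it passed the filter, with a median of -0.13, though in AT2 cells it passed through the RA cells only. In capillary A endothelium it was at 0.478, 0.408, 0.545 and 0.466 in CS mice and 0.819, 0.925, 0.581 and 0.862 in RA mice. No CS mouse reached an RA mouse, and D2 and M1 were closest. The CS mean was 0.595 of the RA mean (-0.28 ± 0.06, adjusted p = 0.0432, limma). The call was lost without C2, C5, D2, D5, F3 or M3 in turn (adjusted p 0.0819 to 0.146, limma), with adjustment over all types (0.0769) and without a filter (0.192).

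In ciliated cells Asns was at 0.476, 0.628, 0.525 and 0.493 in CS mice and 0.751, 0.765, 0.713 and 0.677 in RA mice. Again no CS mouse reached an RA mouse, and the CS mean was 0.730 of the RA mean (-0.17 ± 0.04, adjusted p = 0.0285, limma, background 1.91% called lower in ciliated cells). The adjusted p was 0.0697 with the lane as a block, 0.0784 over all types, 0.0955 without a filter, and 0.0515 to 0.0916 (limma) without C2, D2, D5, F3 or M3 in turn. In ciliated cells the digestion genes Btg2 (-0.74), Fos (-0.70) and Ier2 (-0.69) and the glucocorticoid-responsive gene Zbtb16 (-0.19) were also called lower, and the club cell marker Cyp2f2 (0.43) higher. The summed digestion list overlapped (54.7 to 127 in CS and 92.1 to 134 in RA mice), and the part of these genes in the Asns result was not tested. In club cells the exposures did not overlap either for Asns, at 0.121, 0.155, 0.139 and 0.152 against 0.364, 0.214, 0.212 and 0.197 (-0.13 ± 0.04, adjusted p = 0.321, limma), and the difference was -0.08 without F1. The club cell marker Scgb3a1 was called lower in these cells (-2.40), though the summed club cell markers overlapped. Its part in the Asns difference was not tested.

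Ddit4, which encodes REDD1, an mTORC1 inhibitor induced by ATF4 and also by hypoxia and glucocorticoids, fell in 2 endothelial types. In venous endothelium it was at 0.489, 0.508, 0.479 and 0.575 in CS mice and 1.08, 0.987, 1.11 and 1.01 in RA mice. The mice of each exposure lay close together and far from the other exposure, with a CS mean of 0.490 of the RA mean (-0.44 ± 0.06, adjusted p = 0.0318, limma). Only 0.0649% of genes were called lower in that type. The adjusted p was 0.0832 with the lane as a block, 0.0504 with labelled sex as a term, 0.0798 on summed counts, 0.0703 without a filter, and 0.0551 to 0.153 (limma) when any mouse but F1 was left out. Labelled sex went against the sex-linked transcripts of all CS libraries, so that term is no adjustment for sex.

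In capillary B endothelium Ddit4 was at 0.450, 0.504, 0.409 and 0.329 in CS mice and 1.04, 0.580, 0.911 and 0.849 in RA mice, with F3 closest to the CS mice. The CS mean was 0.499 of the RA mean (-0.37 ± 0.07, adjusted p = 0.0274, limma, background 3.97% called lower). The adjusted p was 0.0646 with the lane as a block, 0.0709 over all types, 0.118 without a filter, and 0.0687 to 0.0887 (limma) without C2, D2 or D5 in turn. A list of 9 glucocorticoid-responsive genes that does not hold Ddit4 summed to 22.9 to 29.7 in CS and 35.1 to 39.8 in RA mice in venous endothelium, and to 19.2 to 24.8 and 28.8 to 33.6 in capillary B endothelium. A list of 14 immediate-early and digestion genes summed to 118 to 153 against 171 to 231 in venous and 63.6 to 96.8 against 122 to 162 in capillary B endothelium. Neither list overlapped between exposures in these 2 types, and their part in the Ddit4 result was not tested. The endothelial markers overlapped in capillary B cells (78.9 to 90.3 in CS and 90.0 to 99.6 in RA mice), though Cldn5 among them was called lower (-0.49). In goblet cells Ddit4 went the other way, at 0.398, 0.627, 0.460 and 0.390 in CS mice and 0.183, 0.162, 0.393 and 0.244 in RA mice (0.24 ± 0.07, adjusted p = 0.218, limma).

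**Figure D4:**
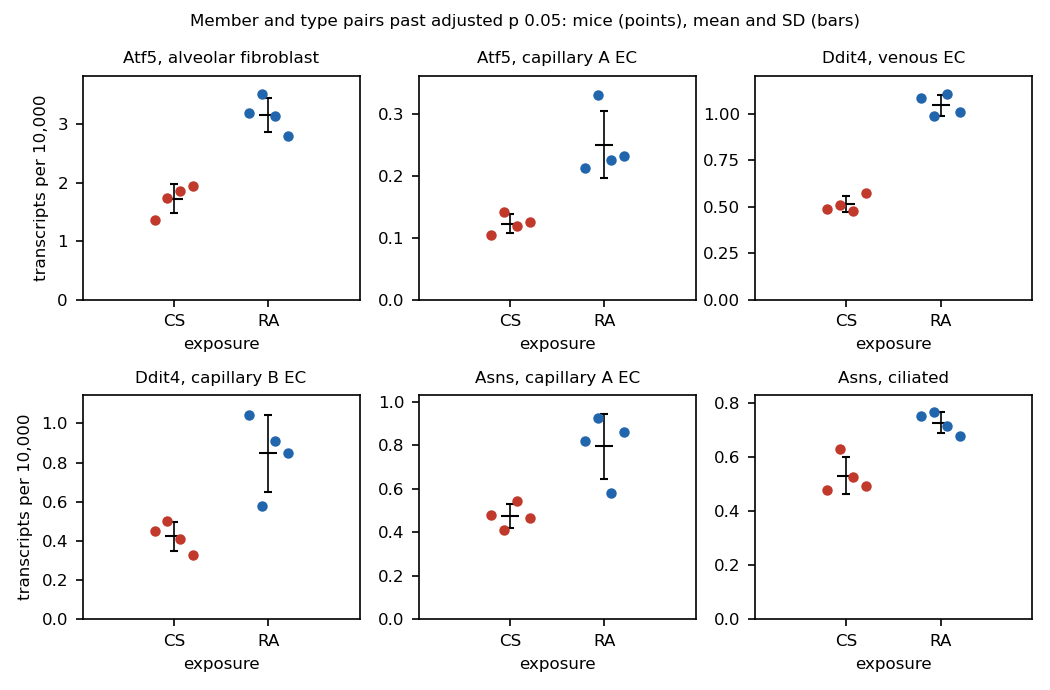
The 6 member and type combinations past an adjusted p of 0.05 (limma), in transcripts per 10,000, with 1 point per mouse and bars for the mean and SD of the 4 CS and 4 RA mice. Every CS point lies below every RA point in each panel, and the CS mean is 0.489 to 0.730 of the RA mean.

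Trib3 and Chac1, both low, passed the filter in 2 types each. In arterial endothelium Trib3, a pseudokinase gene that feeds back on ATF4, was at 0.158, 0.123, 0.186 and 0.194 in CS mice and 0.0579, 0.287, 0.159 and 0.0895 in RA mice, which held both the lowest and the highest value (0.02 ± 0.06, adjusted p = 0.899, limma). The sign turned to -0.02 on summed counts and to -0.01 without F1. Chac1 in the same cells was at 0.290, 0.120, 0.125 and 0.105 against 0.185, 0.313, 0.183 and 0.309 (-0.11 ± 0.07, adjusted p = 0.495, limma), with C2 apart from the other CS mice. Both genes passed the filter in these cells through the RA cells only.

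Sesn2, which encodes an mTORC1 inhibitor that senses leucine and is a target of both ATF4 and p53, leaned the other way, above 0 in 11 of 12 types, with a median of 0.03 and no call. The unadjusted limma p was below 0.05 in 4 types, all higher in CS, where 8.92% of all combinations had such a p with CS higher. In non-classical monocytes the CS mice held 0.117, 0.251, 0.348 and 0.258 and the RA mice F3, M1 and M3 held 0, 0.0723 and 0.0779 (0.24 ± 0.08, adjusted p = 0.702, limma). In alveolar macrophages the values were 0.332, 0.319, 0.480 and 0.297 against 0.238, 0.221, 0.102 and 0.115, without overlap (0.22 ± 0.09, adjusted p = 0.392, limma). All 4 combinations with all CS mice above all RA mice were of Sesn2, and 2 of them, in non-classical monocytes and in NK and cytotoxic T cells, had passed the filter through the CS cells only.

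Set side by side, Nupr1 and the other members had their differences partly in different types. In alveolar fibroblasts Nupr1 (-0.45) stood beside Atf5 (-0.61), Ddit3 (-0.22) and Ddit4 (-0.19, or -0.04 without F1, passing the filter through the RA cells only), while Atf4 was at -0.09. In capillary A endothelium, where Asns was called and Atf4 was at -0.41 (-0.25 without F1), Nupr1 was low, at 0.0524 ± 0.0265 (SD, n = 4) in CS mice and 0.0632 ± 0.0311 (n = 4) in RA mice. In ciliated cells, with the highest mean of Nupr1, Asns was called and Nupr1 was at -0.12. In AT2 cells Nupr1 was at -0.76, Atf5 at -0.17, Asns at -0.09 and Atf4 at 0.03, which as ratios of CS to RA means were 0.480, 0.568, 0.468 and 1.03. Of these, Asns passed the filter through the RA cells only. Without F1 Nupr1 was at -0.50 in AT2 cells and -0.51 in alveolar fibroblasts.

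From mouse to mouse, the relation of Nupr1 to the other members was computed in 9 types with 8 mice, giving 46 pairs. One passed an adjusted exact permutation p of 0.05, Nupr1 with Ddit4 in lymphatic endothelium (Pearson r = 0.89, adjusted exact permutation p = 0.0354, and Spearman rho = 0.93, adjusted exact permutation p = 0.103). Ddit4 in those cells was at 0.747, 0.677, 0.625 and 1.58 in CS mice and 1.74, 1.03, 1.30 and 0.907 in RA mice, and r was 0.96 without the 2 mice farthest from its median and 0.88 on deviations from the exposure means. With 1 mouse left out and p-values adjusted again over all pairs, no pair passed without C2, C5, F1, F3 or M3, and 0 to 1 passed in all.

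In AT2 cells Nupr1 and Asns had r = 0.89 (exact permutation p = 0.00565, adjusted 0.105) and rho = 0.90 (exact permutation p = 0.00456, adjusted 0.105), with r = 0.92 without the 2 mice farthest from the Asns median and 0.69 without F1. Asns passed the filter in AT2 cells through the RA cells only, the exposure where it is higher (6.52% of CS and 11.9% of RA cells). Nupr1 and Atf5 had r = 0.83 (exact permutation p = 0.0160, adjusted 0.105) and rho = 0.83 (adjusted exact permutation p = 0.177), and r was 0.66 without the 2 farthest mice and 0.51 without F1. Nupr1 and Atf4 had r = 0.19 (exact permutation p = 0.664, adjusted 0.970) and rho = 0.31 (adjusted exact permutation p = 0.943). On deviations from the exposure means, r in AT2 cells was 0.78 with Asns, 0.74 with Atf5, 0.73 with Sesn2 and 0.53 with Ddit3. It was 0.43 with Atf4 and 0.38 with Ddit4. These deviations still hold F1. Over the mice as they were, r with Sesn2 was 0.21, and -0.37 without F1. In alveolar fibroblasts Nupr1 and Atf5 had r = 0.84 (exact permutation p = 0.0127, adjusted 0.105) and rho = 0.79, but on deviations from the exposure means r was 0.18, so the relation there rested on the difference between exposures. In goblet cells, where neither gene was called, Nupr1 and Atf5 had r = 0.84 (adjusted exact permutation p = 0.105) and rho = 0.88 (adjusted exact permutation p = 0.111), and r was 0.83 on deviations. The same adjusted exact permutation p was found for Ddit3 in adventitial fibroblasts (r = 0.78, and 0.85 without F1). It was also found for Atf5 in club cells (r = 0.92, rho = 0.48, and r = 0.50 without F1). Over the 9 types the median r of Nupr1 with Atf4 was 0.19, and over 8 types that with Atf5 was 0.63. On deviations from the exposure means these medians were -0.10 and 0.05. With Asns the median r over 4 types was 0.64, which was 0.61 on deviations and 0.07 without F1. With Ddit3 over 9 types it was 0.48, which was 0.14 on deviations and 0.20 without F1. With Ddit4 over 8 types it was 0.15, which was 0.08 on deviations and 0.16 without F1. With Sesn2 over 7 types it was 0.10, which was 0.40 on deviations and 0.11 without F1.

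**Figure D5:**
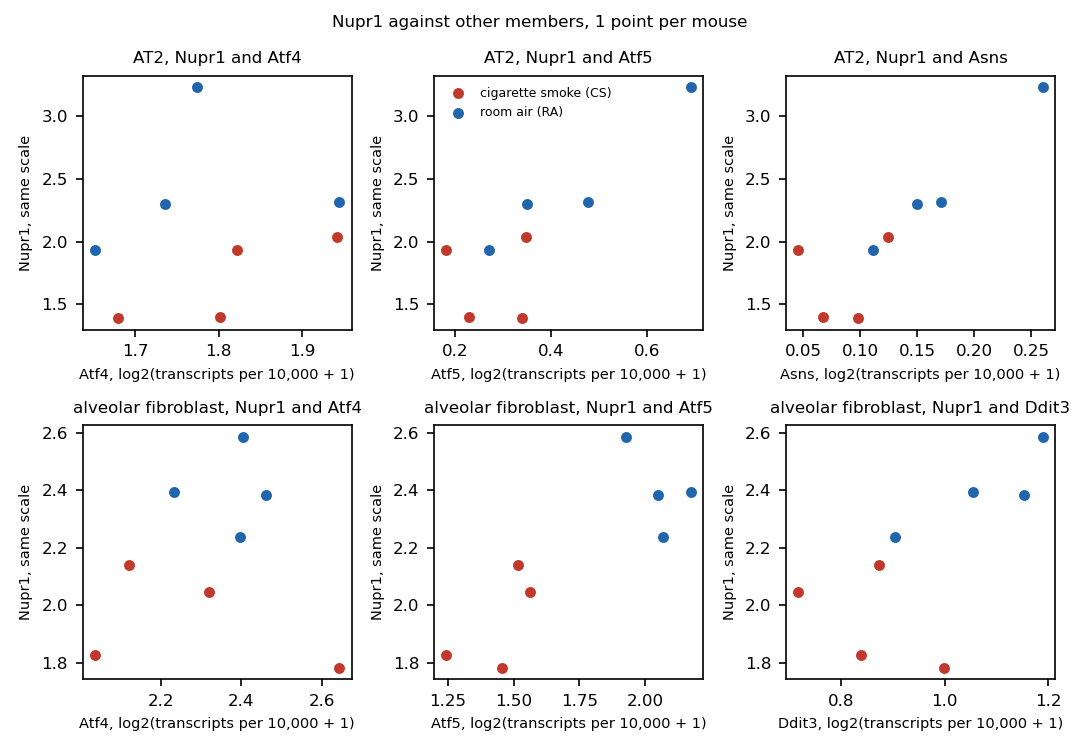
Nupr1 against other members, each axis in log2(transcripts per 10,000 + 1), with 1 point per mouse in AT2 cells (top) and alveolar fibroblasts (bottom). In AT2 cells Nupr1 rises along Asns (r = 0.89) and Atf5 (r = 0.83) with F1 at the upper end and shows little relation to Atf4 (r = 0.19), and in alveolar fibroblasts the CS and RA mice form separate groups along Atf5. Without F1 the AT2 values are 0.69 for Asns, which passed the filter there through the RA cells only, and 0.51 for Atf5.

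The other genes of the pathway were taken from 7 lists chosen by name, and 22 of their combinations were called, 17 lower and 5 higher in CS, where 0.518% of all tests were called lower and 0.712% higher. All lists were chosen with earlier results of these data known, so counts beside the background are a description and no test. Of the 22, 8 were in capillary B endothelium, the type where 3.97% of all genes were called lower. The kinases and eIF2 subunits gave 1 call in 174 tests, 0.575% and near the background (Eif2s1 in capillary B endothelium, -0.15) and the feedback phosphatase subunits 1 in 88 (Ppp1ca in the same cells). The factors linked to ATF4 gave 8 in 107, all lower and all on Cebpb, Cebpg, Atf3 and Jdp2, among them Cebpb, a C/EBP partner of ATF4, in AT1 (-0.45) and ciliated cells (-0.43), Jdp2 in capillary A endothelium (-0.33) and Atf3, itself an immediate-early gene, in capillary B endothelium (-1.01). In AT1 cells the digestion genes Btg2 (-1.05) and Dusp1 (-0.72) were also called lower and the glucocorticoid list did not overlap (12.6 to 13.7 in CS and 15.5 to 25.8 in RA mice). Members of that list went both ways in AT1 cells, with Tsc22d3 (-1.23), Zbtb16 (-1.19) and Klf9 (-0.47) called lower and the metallothionein genes Mt1 (1.82) and Mt2 (0.36) called higher, while the digestion list as a whole overlapped (33.9 to 43.8 and 42.0 to 53.6). In capillary B endothelium the digestion list summed to 63.6 to 96.8 in CS and 122 to 162 in RA mice. The part of either list in these calls was not tested. Amino acid synthesis gave 1 in 58, Cbs in ciliated cells (-0.13), and tRNA synthetases 3 in 247, all lower in capillary endothelium. Amino acid transport gave 4 in 122, all higher, on Slc7a11, the cystine carrier, in ciliated cells and adventitial fibroblasts, Slc6a9 in ciliated cells and Slc7a1 in alveolar fibroblasts. Most of this list leaned lower, with 75 of 122 below 0 and a median of -0.03. In ciliated cells 513 of 11,077 genes were called in either direction, and in adventitial fibroblasts 292 of 9,406. Slc7a11 in ciliated cells was low, at 0.115 in CS and 0.0361 in RA mice. Whether list genes passed the filter through 1 exposure only was not checked. Secreted and other targets gave 3 lower and 1 higher in 148, with Gdf15, a stress cytokine gene, falling by 1.46 on the log2 scale in alveolar macrophages and Eif4ebp1 by 0.26 in capillary A endothelium. In alveolar macrophages the digestion gene Egr1 (-1.71) and the glucocorticoid-list gene Nfkbia (-1.24) were also called lower, though the sums of both lists overlapped, and their part in the Gdf15 call was not tested.

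The ATF6 and XBP1 arms of the unfolded protein response, whose targets are mainly endoplasmic reticulum chaperones, some of which, such as Hspa5, are also described as responding to ATF4, gave 54 calls in 319 tests, all lower, over 8 types. That is 16.9% of the tests, against 0.518% of all tests called lower. This list too was chosen with earlier results of these data known, so the 2 shares are a description and no test. Over all pathway lists, the 76 calls became 7 with no filter on genes and 22 to 77 with 1 mouse left out. In alveolar fibroblasts 8 of 15 were called, where 0.672% of all genes were, with Manf at -0.91, Hspa5 at -0.87, Calr at -0.82, Dnajc3 at -0.59 and Sdf2l1 at -0.56 beside Atf5 at -0.61. In adventitial fibroblasts 11 of 15 were called (background 1.19%), led by Manf (-1.25) and Hspa5 (-1.18), beside Nupr1 at -0.36. In mesothelium 8 of 15 were called (background 0.234%), with Manf at -1.45, Hspa5 at -1.28 and Creld2 at -1.03, beside Nupr1 at -0.55. Ciliated cells, where Asns was called, held 9 (background 1.91%), with Hspa5 at -0.95 and Manf at -0.61. Capillary A endothelium held 4 (background 0.989%), with Calr at -0.59, and capillary B endothelium 9 (background 3.97%), with Hspa5 at -0.78. In AT2 cells, where no gene of any kind was called by limma, 12 of the 15 were below 0, with a median of -0.09. The glucocorticoid list was lower in all CS mice than in all RA mice in mesothelium (19.1 to 22.3 against 23.6 to 40.6), as in arterial, venous and both kinds of capillary endothelium, and the digestion list in capillary B and venous endothelium. The sums of both lists overlapped between the groups in alveolar and adventitial fibroblasts and in ciliated cells, but single members were called lower there, Tsc22d3 in alveolar (-1.23) and adventitial fibroblasts (-0.80), Zbtb16 in alveolar fibroblasts (-0.74) and ciliated cells (-0.19), and Btg2 (-0.74), Fos (-0.70) and Ier2 (-0.69) in ciliated cells. Their part in the calls of this list was not tested.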

How the data were processed

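Libraries were made with 3′ droplet chemistry and, per the labels and methods, aligned by the authors with STAR 2.7.3a (STARsolo) to GRCm38.p6. The authors summed spliced and unspliced molecules, removed free RNA with SoupX and removed cells of poor quality. The deposited values are therefore estimated counts and not raw UMIs (1.28% of nonzero values were whole within 1e-06), so a count model was not used. Cell types are the labels the authors deposited. Each cell was scaled to 10,000 transcripts and averaged per mouse and type (at least 20 cells per mouse, at least 3 mice per exposure). limma 3.58.1 (R 4.3.3, eBayes with trend) was fitted to log2(mean + 1), with Benjamini-Hochberg adjustment within a type, over genes with a transcript in 10% or more of the cells of 1 exposure. Single values were tested by exact two-sided permutation written in Python 3.11.15 (NumPy 2.4.6, pandas 2.3.3), with ranks from SciPy 1.17.1. Figures were drawn with matplotlib 3.10.9. The limma fit was tested on simulated data.

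The members and all lists were chosen with earlier results of these data known. Values of every mouse are given for the members in AT2 cells, in the types where a member was called or otherwise had its smallest p, and for Nupr1 in its 3 highest types. List genes were named up to 5 per type by size, and any member or list gene named beyond this was chosen after its values were seen. Each mouse is 1 replicate. Lanes pair the mice by the labels. Of 82 same-lane pairs of deviations over types, 12 had r over 0.1, and the median r was -0.01 within and -0.00 between lanes. Alternatives were a pseudocount of 0.1, a 25% filter or none, the lane as a block, labelled sex as a term, summed counts, median scaling, adjustment over all types, thinning to 2,000 transcripts, and leaving out each mouse. The term of labelled sex does not adjust for the sex shown by the transcripts, which went against the labels of all CS libraries. Intervals and shares cover counting and mouse-to-mouse error only.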

Additional observations from a re-analysis of the deposited data

Results flagged for a closer look

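Of 45 groups of 4 mice checked, 2 held 1 mouse far from the other 3, where chance at 1 in 20 gives 2.25. That count covers the checked groups only, and F1 was the highest of all mice in 36 of the 96 combinations it entered. Nupr1 in club cells was not among the groups checked, with F1 at 13.5 and the other RA mice at 2.34 to 3.28. Ddit4 in alveolar fibroblasts was not checked either, with F1 at 0.731 and the other RA mice at 0.111 to 0.202. Atf5 in capillary A endothelium was at 0.330 transcripts per 10,000 in RA mouse F3, and the other RA mice held 0.213 to 0.232. Without F3 the difference kept its direction and its adjusted p was 0.0782 (limma). Chac1 in arterial endothelium was at 0.290 in CS mouse C2, and the other CS mice held 0.105 to 0.125.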

How the results depend on the processing

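The 6 member calls became 0 with no filter on genes, 2 with the lane as a block, which pairs the mice of a lane, 2 with adjustment over all types, and 1 to 6 when 1 mouse was left out. The 76 calls on the 8 pathway lists became 7 with no filter, 37 with the lane as a block, 45 with adjustment over all types, and 22 to 77 with 1 mouse left out. Nupr1 outside AT2 cells went from 0 calls to 1 (alveolar fibroblasts) with the 25% filter. The 1 correlation past 0.05 became 0 to 1 with 1 mouse left out. The share of AT2 cells with a Nupr1 transcript, 83.2%, was 40.0% at 2,000 transcripts per cell. The sign turned for Trib3 in arterial endothelium on summed counts (-0.0203, and -0.0134 to 0.0810 with 1 mouse left out), for Nupr1 in ciliated cells (-0.249 to 0.0442 with 1 mouse left out) and for Nupr1 in peribronchial fibroblasts (-0.0435 to 0.262, with -0.0247 without D2). Nupr1 in AT2 cells kept its direction under all alternatives run, from -0.97 with a pseudocount of 0.1 to -0.50 without F1, and passed 0.05 under none. The no-filter and all-types settings test more genes at once. The cause of the changes under any setting was not tested. Levels under 1 transcript per 10,000 rest on few molecules per mouse, and no difference of exposure can be checked without the 4 CS libraries whose sex-linked transcripts go against their labels.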
